A study of Oryza sativa with 21 samples.

Results

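The regions described here are stretches of the rice genome where all 3 seedling peak lists of the DRW1 overexpression line OE1, and none of the 3 lists of its parent cultivar ZH11, placed a peak of RNA m5C. They were found by pooling the peaks of the 6 lists, merging overlapping or touching peaks into regions, and keeping those off the contigs that a peak of every OE1 list and of no ZH11 list overlapped by at least 1 bp. There were 3759 of them, among 109167 regions on the 12 chromosomes and 111849 regions in all. Another 56 regions with the same pattern lay on contigs and were set aside.

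The lists come from OE1 seedlings (genotype DRW1-OE) and wild-type ZH11 seedlings (genotype WT), both collected 3 weeks after germination from plants grown in a chamber. Each genotype had 3 immunoprecipitated libraries and 3 inputs, all from total RNA broken into fragments. Each list is tied by the labels to an immunoprecipitated library and an input of the same number. The labels name no promoter for DRW1, no plant pooling and no second overexpression line in the seedling experiment, so OE1 stands for 1 line, and whether replicates are separate plants is not stated.

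5-methylcytosine (m5C) is a methyl mark on cytosine bases that occurs in transfer, ribosomal and messenger RNA. In plants and animals it is placed by RNA methyltransferases of the NSUN family and, on transfer RNA, by an enzyme related to the DNA methyltransferases. In rice, loss of an NSUN enzyme is known to impair growth in heat. An antibody pull-down finds fragments that carry the mark, at the resolution of a fragment and not of a base, and a peak is a stretch where such fragments exceed the input. The lists give no transcript level, so more m5C per transcript and more of the transcript cannot be told apart. No source used here names the genome build of the peaks, so the genes and the bases under the regions are not analysed here.

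The lists that chose the regions differed in size. The 3 OE1 lists held 90132, 91560 and 94379 peaks and covered 39.6, 35.5 and 41.6 Mb, against 73753, 67984 and 79303 peaks and 29.5, 18.4 and 24.4 Mb in the 3 ZH11 lists. Of these peaks 79.4%, 83.6% and 75.3% had a q below 0.05 in OE1, against 68.4%, 59.2% and 68.9% in ZH11. Every OE1 list was longer, covered more bases and held a larger share of peaks below that q than every ZH11 list. The part of these differences in the presence of OE1-only regions was not tested, and the read depth behind each list is unknown.

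OE1-only regions made up 3.44% of the chromosomal regions. The mirror class, found in every ZH11 list and absent from OE1, held 203 regions or 0.186%. OE1-only regions were 6.38% of the 58919 regions held by all 3 OE1 lists, while 11.8%, 24.0% and 57.8% of these were also in 1, 2 and 3 ZH11 lists. ZH11-only regions were 0.559% of the 36345 regions held by all 3 ZH11 lists. Regions with 1 and 2 such lists were 6.38% and 12.9% of all chromosomal regions, and those of all 6 lists 31.2%. Most regions without a ZH11 peak were not shared by all OE1 lists: 17879 regions had a peak in exactly 1 OE1 list and no ZH11 list, and 7329 in 2 OE1 lists and no ZH11 list. The presence rule used these values, and the counts are a description with no test.

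**Figure D1:**
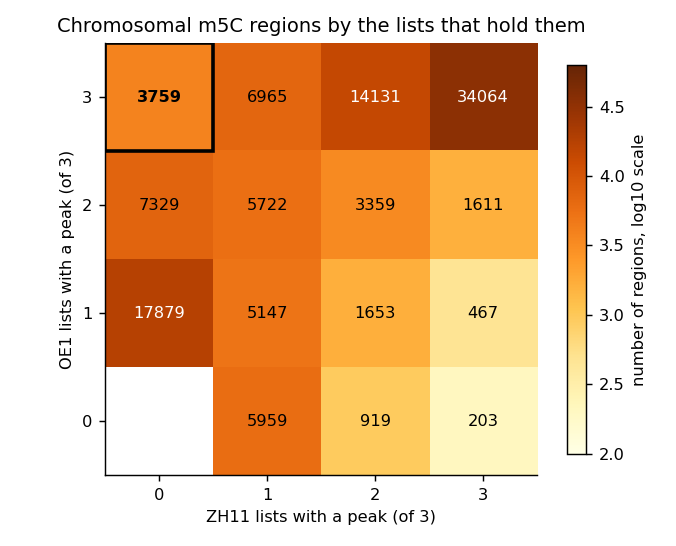
Number of chromosomal regions by how many of the 3 OE1 lists (vertical axis) and of the 3 ZH11 lists (horizontal axis) hold a peak in them; colour gives the number on a log10 scale. The outlined square is the 3759 OE1-only regions, and the opposite corner holds the 203 ZH11-only regions.

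The number depended on the lists required to agree. It was 6405, 6941 and 5868 without OE1 replicate 1, 2 and 3, and 7012, 5597 and 5795 without ZH11 replicate 1, 2 and 3, since 1 list fewer then had to agree. The ZH11-only number became 410, 336 and 385 without OE1 replicate 1, 2 and 3, and 599, 508 and 473 without ZH11 replicate 1, 2 and 3. With every list shortened to its 67984 peaks of smallest q, so that all were of 1 length, 1386 regions were OE1-only and 736 ZH11-only, and 985 of the 1386 overlapped a region of the reported set. Equal length is not an equal q cutoff: ZH11 replicate 2 was kept whole, with 59.2% of its peaks at q below 0.05. All 1386 regions had a q below 0.05 in every OE1 list. The OE1-only class was the larger in each of these settings.

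The strongest OE1-only region was 233 bp wide, at bases 14569285-14569517 of chromosome 11. Its enrichment over input, as deposited by the authors for the strongest peak in the region and read from the usual column order of such lists, was 6.15, 7.23 and 5.10 in the 3 OE1 lists, and its −log10 q was 6.36, 8.42 and 4.86. It was the 1 OE1-only region whose weakest OE1 peak reached a −log10 q of 4. Its 3 summits lay within 23 bp of each other, and the nearest ZH11 peak was 3238 bp away. Each OE1 list therefore placed a well-enriched peak at the same spot, in a neighbourhood free of ZH11 peaks for some kilobases.

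The region of the next largest mean enrichment, at bases 9852814-9853073 of chromosome 5, had enrichments of 4.22, 6.69 and 6.32 in the 3 OE1 lists. A ZH11 peak lay 239 bp from it. On chromosome 9, bases 7902865-7903075 had 4.93, 5.64 and 6.26, with a ZH11 peak at 449 bp. These 2 regions were of like width to the first, at 260 and 211 bp, but stood beside stretches that a ZH11 list had marked too. A second region of chromosome 9, at 22875743-22875984, had 4.98, 4.33 and 6.80. Its ZH11 neighbour lay 944 bp away.

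On chromosome 8, bases 11140870-11141116 had enrichments of 4.47, 5.09 and 6.32, with summits within 15 bp and a ZH11 peak at 216 bp. On chromosome 6, bases 16951803-16952105 had 5.64, 5.49 and 4.61, with summits within 13 bp and no ZH11 peak nearer than 9306 bp. This was the most isolated of the 21 regions named by the rule. On chromosome 4, bases 13206757-13207041 had 4.81, 5.09 and 5.34, and on chromosome 10, bases 2609680-2609917 had 4.47, 4.68 and 6.07 with all summits within 2 bp. The chromosome 4 region varied little between lists (5.08 ± 0.266, SD, n = 3 lists), and the chromosome 10 region more (5.08 ± 0.868).

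The strongest regions of the remaining chromosomes had mean enrichments of 4.71 to 5.08. On chromosome 1, bases 16705570-16705867 had enrichments of 5.98, 4.88 and 4.36, and on chromosome 7, bases 9771296-9771518 had 5.31, 6.04 and 3.41. On chromosome 3, bases 18690870-18691128 had 4.64, 3.48 and 6.32, a mean of 4.81 ± 1.43 (SD, n = 3 lists). That was the widest spread among the regions named here, and its weakest −log10 q was 2.01. On chromosome 12, bases 18853385-18854027 had 4.47, 4.88 and 4.85, and on chromosome 2, bases 30057379-30057622 had 4.98, 5.29 and 3.88. The chromosome 12 region was 643 bp wide, while the others of this paragraph were 223 to 298 bp.

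Ranked instead by the weakest of the 3 q values, 2 further regions entered the first 8. Bases 18620573-18620878 of chromosome 8 had enrichments of 4.64, 4.88 and 5.10, and bases 5676585-5676860 of chromosome 10 had 4.64, 4.48 and 4.85. Both were even across the lists (4.87 ± 0.228 and 4.66 ± 0.185, SD, n = 3 lists). The first lay 3416 bp from the nearest ZH11 peak and the second 175 bp.

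Most OE1-only regions were far weaker than these. Over all 3759, the mean enrichment of the 3 OE1 lists had a median of 3.03, with a middle range of 2.78 to 3.35 and extremes of 1.92 and 6.16. It reached 4 in 148 regions (3.94%) and 5 in 11 (0.293%). List by list the median was 2.97, 3.08 and 2.90. Enrichment values recurred: 50% of the regions shared 6 values in OE1 replicate 1, 5 in replicate 2 and 4 in replicate 3, so differences between regions of middling enrichment come in a few discrete steps.

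Of the OE1-only regions, 1459 (38.8%) had a q below 0.05 in all 3 OE1 lists and 245 (6.52%) in none. In single lists the share was 67.7%, 74.3% and 63.8%. Among regions in all 6 lists, 86.7% had such a q in all 3 OE1 lists and 0.578% in none. The weakest of the 3 OE1 peaks had a median −log10 q of 0.814 in OE1-only regions and 2.57 in regions of all 6 lists. These values come from the lists that the rule used and carry no test.

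The number of ZH11 lists that shared a region followed its enrichment in OE1. Median mean enrichment was 3.03 in OE1-only regions, 3.20 where 1 ZH11 list also had a peak, 3.67 with 2 ZH11 lists and 4.44 with all 3. This order held in each OE1 list. It also held among regions of like merged width, ZH11 peaks included. Between 225 and 386 bp, the middle range of OE1-only widths, the medians were 2.99, 3.19, 3.54 and 3.93, over 1890, 3181, 4642 and 4493 regions.

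**Figure D2:**
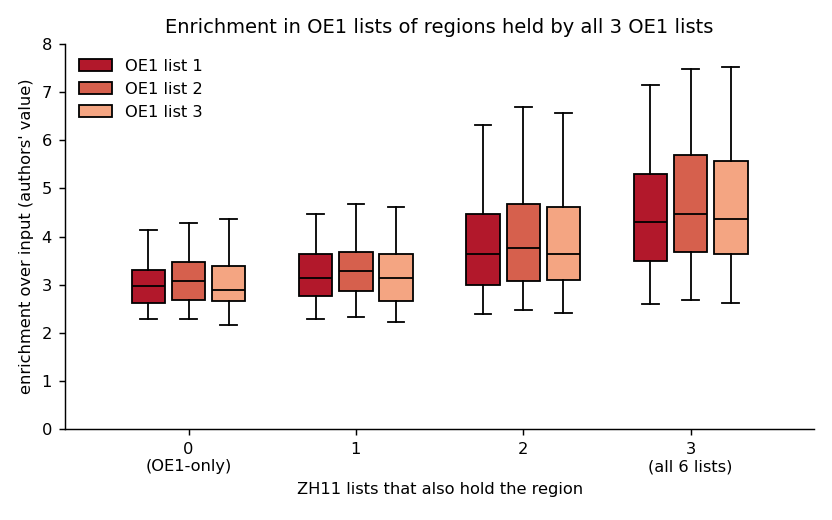
Enrichment over input in each OE1 list (authors' values, linear axis) for regions held by all 3 OE1 lists, grouped by how many ZH11 lists also hold them; boxes span the quartiles with the median as a line, whiskers run over the middle 90% of regions. The OE1-only boxes are the lowest, with medians of 2.97, 3.08 and 2.90, against 4.31, 4.48 and 4.37 in regions of all 6 lists.

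Seen from the OE1 side, the share of regions without any ZH11 peak fell with strength. Where the weakest OE1 peak had a −log10 q under 0.5, 20.1% of 2094 regions were OE1-only. The share was 16.4% between 0.5 and 1, 8.96% between 1 and 1.5, 3.14% between 1.5 and 2, and 1.25% between 2 and 3. From 3 to 4 it was 0.343% of 7879 regions, and from 4 upward 1 of 9719. Of the 3759 regions, 3399 (90.4%) had a weakest OE1 peak under 1.5. These bins were not limited to like merged width, and the part of width in this fall was not tested. Among regions of 225 to 386 bp, 33.7% of OE1-only regions had a q below 0.05 in all 3 OE1 lists. With 1, 2 and 3 ZH11 lists that share was 47.9%, 65.9% and 78.4%.

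**Figure D3:**
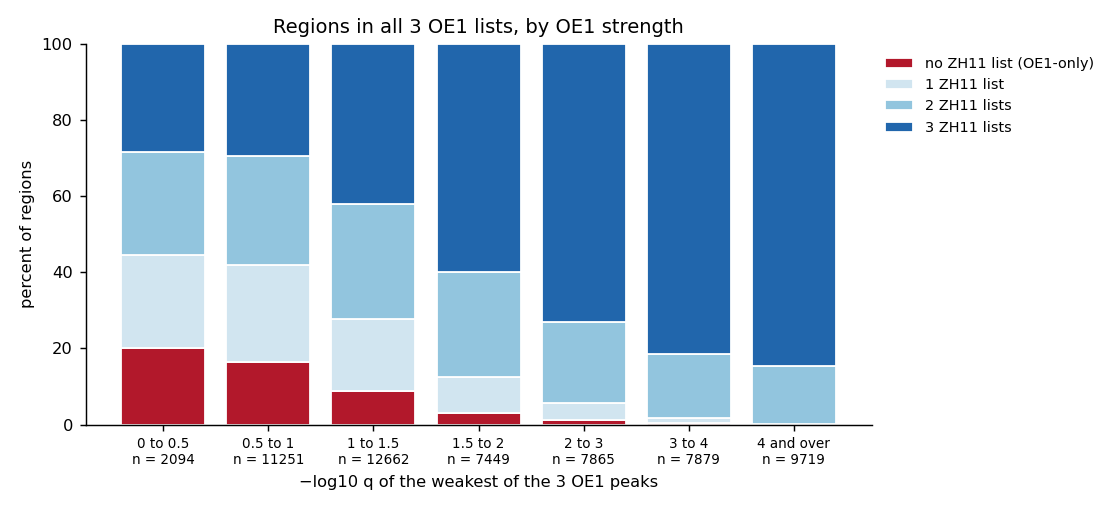
Regions held by all 3 OE1 lists, binned by the −log10 q of their weakest OE1 peak (horizontal axis, n below each bin); bar segments give the percent held by 0, 1, 2 or 3 ZH11 lists. The OE1-only segment shrinks from 20.1% in the lowest bin to 0.343% between 3 and 4. The bins are not matched for region width.

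A threshold on every list removes weak ZH11 peaks as well as weak OE1 peaks, so other regions can become OE1-only. The thresholds also made the lists more unequal. Together the OE1 lists held 1.25 times as many peaks as the ZH11 lists as deposited. This ratio was 1.51 with q below 0.05, and 3.73 with a −log10 q of at least 5. Its part in the counts that follow was not tested. With peaks of q below 0.05 alone, 5148 regions were OE1-only and 176 ZH11-only. Of these 5148, 1458 (28.3%) overlapped a region of the reported set, as its q values fix, and 3690 fell within regions of the lists as deposited that at least 1 ZH11 list shared. With a −log10 q of at least 5, 2351 regions were OE1-only and 12 ZH11-only. No region of the reported set could be among them, since its highest weakest −log10 q was 4.86, so all 2351 came from regions that at least 1 ZH11 list shared as deposited.

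Just outside the rule stood the 6965 regions with all 3 OE1 lists and 1 ZH11 list. That list was ZH11 replicate 1 in 3158 of them (45.3%), replicate 3 in 2013 (28.9%) and replicate 2 in 1794 (25.8%). The ZH11 peak had a median enrichment of 3.02, and 46.9% of these peaks had a q below 0.05. It was seldom a grazing contact: its bases shared with OE1 peaks had a median of 161 bp, and numbered 10 or fewer in 3 regions. Just inside stood OE1-only regions that missed a ZH11 peak by a few bases. On chromosome 8, bases 25390206-25390787 ended 1 bp short of a peak of ZH11 replicate 3 with an enrichment of 3.74, and had 2.63, 2.68 and 3.39 in OE1. On chromosome 9, bases 8380582-8380977 were 1 bp from a peak of ZH11 replicate 2 (3.34), with 2.30, 2.88 and 3.39 in OE1. On chromosome 4, bases 25805697-25806259 were 4 bp from another (3.34), with 3.97, 3.08 and 2.90 in OE1. These 3 regions were OE1-only by a margin of 1 to 4 bp.

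OE1-only regions were narrow. Their width had a median of 289 bp, a middle range of 225 to 386 bp and extremes of 137 and 1230 bp, and together they covered 1.22 Mb. Regions of all 6 lists had a median of 763 bp and covered 32.4 Mb. These widths are of merged regions, which pool peaks of 6 lists there and of 3 in OE1-only regions. In OE1-only regions the OE1 peaks themselves had median widths of 200, 182 and 206 bp. Over each whole OE1 list the peaks had medians of 299, 268 and 296 bp. A wide merged region meets a ZH11 peak more easily than a narrow one, so width and the rule are not independent. In 3625 OE1-only regions (96.4%) each OE1 list had exactly 1 peak, against 65.3% of regions in all 6 lists. The classes nearest to them were alike in this: regions with 1 ZH11 list had a median width of 341 bp and 92.7% with 1 peak per OE1 list, and ZH11-only regions 237 bp and 98.5% with 1 peak per ZH11 list. The 3 widest lay on chromosome 6 at 5328444-5329673 (1230 bp), chromosome 11 at 21375882-21377104 (1223 bp) and chromosome 1 at 16767571-16768752 (1182 bp). They were chains of several peaks, with summits 527, 952 and 614 bp apart and mean enrichments of 3.54, 2.89 and 2.91.

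The distance between the outermost of the 3 summits had a median of 67.0 bp, and it was at most 100 bp in 66.7% of OE1-only regions. Regions with 1, 2 and 3 ZH11 lists had medians of 68.0, 67.0 and 93.0 bp. Among regions of 225 to 386 bp the order was the other way: the median was 72 bp in OE1-only regions, and 61, 53 and 45 bp with 1, 2 and 3 ZH11 lists. At like merged width the summits of the 3 OE1 lists thus lay farthest apart in OE1-only regions. That width includes ZH11 peaks in the other classes, which can leave their OE1 peaks less room. The part of this in the order was not tested. The lists ranked the OE1-only regions less alike than those of all 6 lists: Spearman's rho of enrichment between 2 OE1 lists was 0.30, 0.32 and 0.25 over 3759 regions, and 0.67, 0.64 and 0.66 over 34064. These correlations are descriptions across regions of the same libraries. The classes also differ in their span of enrichment and OE1-only values recur often, and the part of either in these correlations was not tested. The SD over the 3 lists was a median of 13.2% of the mean in OE1-only regions and 14.1% in regions of all 6 lists.

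Many OE1-only regions lay near ZH11 peaks. The nearest ZH11 peak was a median of 806 bp away, within 500 bp of 1362 regions (36.2%), within 1000 bp of 2153 (57.3%) and over 10000 bp away for 114 (3.03%). The 17879 regions of 1 OE1 list and no ZH11 list had a median of 854 bp, with 54.5% within 1000 bp. The 203 ZH11-only regions lay a median of 476 bp from the nearest OE1 peak. Set against each ZH11 list alone, the median distance was 1205, 1353 and 1231 bp for replicates 1, 2 and 3. By distance, OE1-only regions thus lay about as near to ZH11 peaks as those seen in a single OE1 list.

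The rule also shapes the bases directly beside the regions, since merging leaves no peak that touches a region's edge. OE1-only regions were at most 1230 bp wide, so positions 1000 and 1500 bp from the centre lay outside them. At 1500 bp on either side of the centre, peaks of the OE1 lists covered 17.0%, 15.3% and 17.7% of OE1-only regions, and peaks of the ZH11 lists 11.8%, 7.88% and 9.98%. The lists of the genotypes did not overlap in this measure. Their total cover did not overlap either, at 35.5 to 41.6 Mb in OE1 and 18.4 to 29.5 Mb in ZH11. The part of total cover in these flank values was not tested. Around regions of all 6 lists the cover at 1500 bp was higher, at 29.2%, 26.5% and 30.2% in OE1 and 23.4%, 14.8% and 19.1% in ZH11. There it also exceeded the cover at 1000 bp in every list (22.4%, 19.9% and 23.4% in OE1, and 16.9%, 10.2% and 13.3% in ZH11), a shoulder on both sides of the centre. Around OE1-only regions the cover at 1000 bp was 15.2%, 13.4% and 16.2% in OE1 and 10.1%, 7.01% and 8.68% in ZH11, so that the step to 1500 bp was small.

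**Figure D4:**
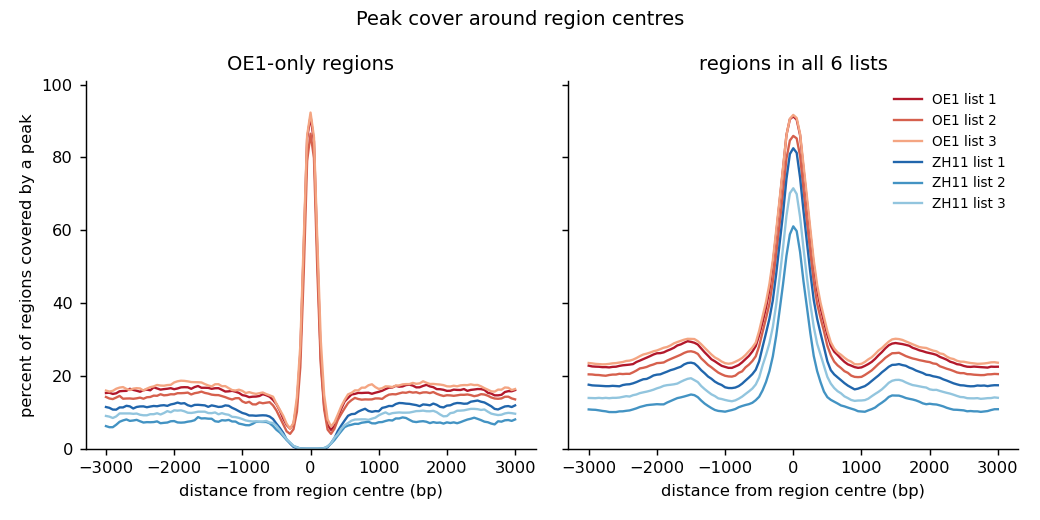
Percent of OE1-only regions (left) and of regions in all 6 lists (right) covered by a peak of each list, by distance in bp from the region's centre; reds are OE1 lists and blues ZH11 lists. The rule fixes the centre of the left panel and shapes the cover just beside it. Farther out the OE1 lists run above the ZH11 lists on both sides, and the right panel shows shoulders near 1500 bp.

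The regions were spread over the whole genome. They numbered 395 on chromosome 1 and 243 on chromosome 9, the most and the fewest. As a share of a chromosome's regions they ran from 3.18% on chromosome 3 to 3.80% on chromosome 11, around the 3.44% of all chromosomes. Median enrichment per chromosome lay between 3.01 and 3.09, and median width between 274 and 303 bp. In strength and width the chromosomes were thus much alike.

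At a finer scale, all but 2 of 378 windows of 1 Mb held at least 1 OE1-only region. Among the 374 windows with at least 100 regions, the OE1-only share had a median of 3.36%, a middle range of 2.67% to 4.08% and extremes of 0.800% and 6.74%. The fullest windows were those from 14 to 15 Mb and from 12 to 13 Mb of chromosome 11, with 28 OE1-only regions each among 476 and 534, and from 8 to 9 Mb of chromosome 7, with 24 among 376. Their shares were 5.88%, 5.24% and 6.38%. The first of these windows also holds the strongest OE1-only region. Windows with more regions of any kind held more OE1-only regions (Spearman's rho 0.76 over 374 windows, a description of windows that share libraries).

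Few OE1-only regions stood side by side. Of 7516 regions directly next to an OE1-only region, 282 (3.75%) were OE1-only, near the 3.44% of all regions, and 27.6% were in all 6 lists, against 31.2% of all regions. In all, 3479 OE1-only regions stood alone, 137 runs held 2 and 2 runs held 3. The runs of 3 spanned 10468 bp on chromosome 5 (21196080-21206547) and 17713 bp on chromosome 8 (2313757-2331469), with enrichments of 2.77 to 3.60 and 3.36 to 4.12. These runs were singled out after their positions had been seen.

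Because the rule fixes presence in all 6 lists, the same choice was made on 2 OE1 and 2 ZH11 lists and read in the pair left out, for all 9 pairs. The choice then gave 8321 to 11303 regions. The left-out OE1 list had a peak in 59.7% to 76.0% of them, and the left-out ZH11 list in 27.1% to 41.7%. The OE1 list was the higher in 9 of 9 pairs, by 25.0 to 42.6 percentage points. Over all chromosomal regions of the 4 lists it was higher in 9 of 9 pairs as well, by 11.0 to 26.6 points. The shares there were 68.7% to 77.4% in the OE1 list and 49.0% to 60.2% in the ZH11 list. Mean shares were 67.7% (OE1 list) and 32.8% (ZH11 list) under the choice, and 73.1% and 54.8% over all regions. Both left-out lists thus held chosen regions less often on average than regions in general, and the ZH11 list fell further.

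Under the mirror choice the shares of the left-out OE1 and ZH11 lists overlapped. In the 752 to 1055 regions of 2 ZH11 lists and neither of 2 OE1 lists, the left-out OE1 list had a peak in 33.1% to 49.9% and the left-out ZH11 list in 40.8% to 47.3%. The OE1 list was the higher in 4 of 9 pairs. Its share minus the ZH11 share ran from -9.40 to 9.10 points, against 11.0 to 26.6 over all regions of the 4 lists. Mean shares were 42.7% in the OE1 list and 44.3% in the ZH11 list. Set against all regions, the OE1-only and the mirror choice thus moved the mean difference in opposite directions. The 9 pairs reuse the same 6 lists, so they are not independent and no test was made. Leaving out ZH11 replicate 1 gave the highest ZH11 shares in OE1-only choices, 39.2%, 38.6% and 41.7%, against 27.1% to 31.9% with ZH11 replicates 2 or 3 left out.

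**Figure D5:**
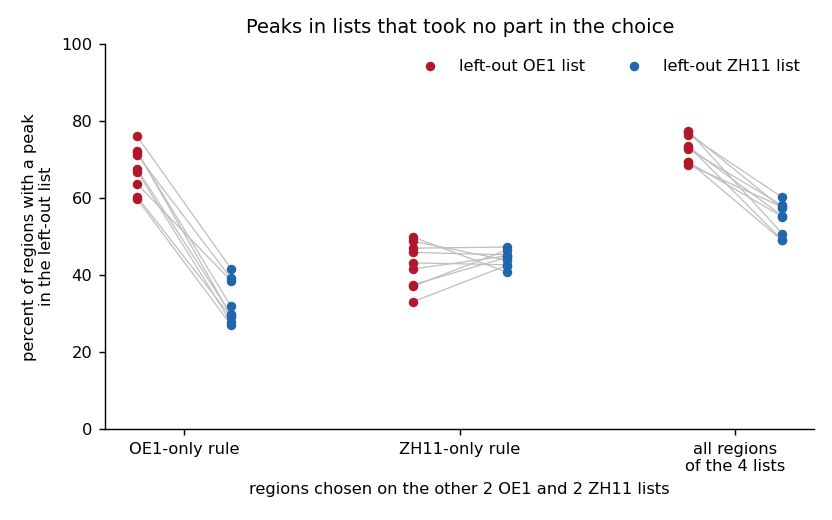
Percent of regions with a peak in a list left out of the choice (linear axis); red points are the left-out OE1 list and blue points the left-out ZH11 list, joined for each of the 9 pairs. Under the OE1-only choice the red points lie at 59.7% to 76.0% and the blue at 27.1% to 41.7%; under the ZH11-only choice they overlap.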

How the data were processed

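Peak lists of m5C immunoprecipitation in seedlings were used as the authors deposited them, 1 per immunoprecipitated library and input, 3 of OE1 and 3 of ZH11. Per the labels each list belongs to the libraries of the same replicate number. The deposited lists have no header, and the usual narrowPeak column order was assumed: per peak a fold enrichment ratio over input, −log10 of p and of q, and a summit distance, stored as another number. The smallest −log10 p in a list was 1.30 or 1.31. The submitters' processing notes name HISAT2, featureCounts and BWA without roles or versions, and no source used here names the aligner, caller or build of the peaks.

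Peaks were merged in Python 3.11.15 with pandas 2.3.3, and the count of 3759 was the same with bedtools 2.31.1. Merging, the presence rule, gaps and overlaps were checked on simulated lists whose planted regions stood well apart. Regions a few bases from a ZH11 peak were not simulated, and the other steps were not checked this way. Values of a region in a list are those of its peak of largest enrichment, and coordinates are 1-based. Regions named were the 8 of largest mean enrichment, the 8 of largest weakest −log10 q, the strongest of each of the 12 chromosomes, the 3 widest and the 3 nearest to a ZH11 peak, plus the 3 fullest windows of 1 Mb. The members, classes and rules were chosen with earlier results of these data known. Grain counts were not used, since their gene identifiers carry no positions. No test was made, because presence in these lists chose the regions. Alternatives were a stricter q, lists of equal length, joined peaks, 50% cover, a margin, contigs kept and each list left out.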

Additional observations from a re-analysis of the deposited data

How the results depend on the processing

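OE1-only regions outnumbered ZH11-only regions under every alternative run, but their number moved: 1386 with lists of equal length, 2351 with a −log10 q of at least 5, 6986 where 50% of a region must be covered to count as present, 1606 with no ZH11 peak within 1000 bp, and 5597 to 7012 with a list left out. ZH11-only regions numbered 736, 12, 202, 72 and 336 to 599 in the same order. Median enrichment was 3.52 with q below 0.05, 6.46 with a −log10 q of at least 5, 3.55 with equal lists, 3.40 with 50% cover, and 2.90 to 3.13 with a list left out. Median width was 355, 980, 290 and 407 bp in the same order, 274 bp with the 1000 bp margin, and 238 to 308 bp with a list left out. The share with a q below 0.05 in all OE1 lists was 100% in the first 3 of these settings, 62.2% with 50% cover, 42.2% with the margin and 40.5% to 50.5% with a list left out. Equal lists and the q thresholds drop weak peaks by construction. The q thresholds also left OE1 with 1.51 and 3.73 times as many peaks as ZH11, against 1.25 times as deposited. The margin removes by construction the 2153 reported regions within 1000 bp of a ZH11 peak. With a list left out, 1 list fewer had to agree, and 50% cover changes what counts as present. The part of these changes in the shifts of width, enrichment and q share was not tested. Joining peaks up to 100 bp apart gave 3628 OE1-only and 187 ZH11-only regions, and keeping contigs 3815 and 217. In these settings the median width was 288 bp, median enrichment 3.03 and 3.04, and the share 38.9% and 39.0%, near the reported values. No paired analysis was possible because the result comes from no test, and the labels tie no OE1 list to a ZH11 list of the same number. The lists give no read depth, which limits what the absence of a ZH11 peak can show.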
